A study of Homo sapiens with 47 samples.

Results

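The genes described here are 8 listed members of the tissue factor, plasminogen and coagulation systems among the 25739 genes measured in single cells of the human triple-negative breast cancer (TNBC) line MDA-MB-231-LM2 (LM2). They are F3, TFPI, TFPI2, PLAU, PLAT, PLAUR, SERPINE2 and THBS1. They were chosen by name, with earlier results of these data known, and all 8 had a mean of at least 8 in circulating tumor cells (CTCs) or in culture. GFP-labeled LM2 cells were injected into the mammary fat pad of young NOD/SCID gamma (NSG) mice, which lack B, T and NK cells but keep platelets and a working clotting system. Blood was taken from mice with large primary tumors, and CTCs were enriched by size, stained for CD45 as a negative marker, picked by their GFP signal and processed 1 by 1 with SMARTseq2, which reads full-length cDNA and carries no molecular identifiers. Single LM2 cells grown in culture were processed alongside the CTCs for sequencing. Whether they also went through the size enrichment, staining and GFP picking is not stated. The study set out to find surface markers for live CTCs, and the culture served it as a control for library quality.

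Values were available for 37 CTCs from 5 mice, with 2 cells from mouse 5541, 4 from mouse 5542, 10 from mouse 5545, 17 from mouse 5546 and 4 from mouse 5549, and for 6 cultured cells. Cells are not replicates of a condition, so the CTCs were averaged by mouse, and the cultured cells, whose dishes are not given, were taken as 1 sample with no replicate of its own. No tested difference between CTCs and culture can therefore rest on the spread between cultures, and the comparison was read by a rule of size. Under this rule a gene differed when the mean of each of the 5 mice was at least 4-fold from the culture mean in 1 direction, after 1 was added to both, and the larger mean was at least 8. The values are reads per gene divided by a size factor of the cell, called normalized counts below. Binomial and Poisson intervals cover counting error only, because amplified reads are not independent molecules.

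CTCs had 469614 to 2041333 reads on genes and 2313 to 12299 genes detected, against 776949 to 1186197 reads and 7369 to 13679 genes in cultured cells. On the scale of normalized counts most genes were lower in CTCs, with a median log2 ratio to culture of -1.56 over the 9164 genes whose larger mean was at least 8, and of -0.81 over 8777 genes in RPM, which scales each cell only by its total reads. Values of members are therefore also given relative to that median. All 8 markers of the mesenchymal LM2 line, such as VIM and CD44, were above the minimum. Their summed level was 5744 to 39259 in CTCs and 12793 to 18025 in culture, so CTCs spread to both sides of the culture range. Erythroid transcripts were present in CTCs and not in culture, with HBB at 1482 ± 1409 (SD, n = 5 mice) against 0. The summed platelet markers had a median of 0 and a highest value of 77.3 in CTCs, where GP9 had a mean of 4.23 and PF4 and PPBP had means under 1. S100A9, a neutrophil marker, had a mean of 68.4 in CTCs and 0 in culture. The leukocyte markers PTPRC, LYZ and CORO1A had 3.82, 9.51 and 24.7 against 0, 1.33 and 0.20. LAPTM5, the most abundant leukocyte marker, went the other way with 118 against 277, and the summed leukocyte markers had a median of 121 against 315. Of the fibroblast and pericyte markers, ACTA2 had 17.3 against 0.41 and COL1A1 32.4 against 10.0. RGS5, of the same list, had 0 against 7.75. Blood cells of the host are mouse cells, and reads were aligned to the human genome. Low values of these markers therefore do not show that such cells were absent. The part of these cell types in the results was not tested. The library names of mouse 5546 hold 1 of 2 unexplained letters, c in 9 and s in 8. Genes detected numbered 7782 to 12299 in the c libraries and 4656 to 7538 in the s libraries. The cultured libraries also fell apart. LM-1, LM-P3 and LM-P4 had 11912 to 13679 genes, and LM-2, LM-3 and LM-10 had 7369 to 8467. For the members that differed most between these sets, both means are given below.

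Tissue factor, encoded by F3, is a transmembrane receptor for factor VII that starts the extrinsic pathway of coagulation when exposed to blood, and tumor cells that carry it can promote clotting around themselves. TFPI restrains that step. Urokinase (PLAU) and tissue-type plasminogen activator (PLAT) turn plasminogen into plasmin, which dissolves fibrin and degrades matrix, and PLAUR holds urokinase at the cell surface. Serpins and Kunitz-type inhibitors such as SERPINE2 and TFPI2 limit these proteases, and thrombospondin 1 (THBS1) is a matrix and platelet glycoprotein.

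F3 had the lowest mean log2 ratio to culture among the members and TFPI2 the highest, although PLAT, at 0 in 2 mice, was lower than F3 with a pseudocount of 0.1 (-4.99 against -4.57) and with medians over cells (-4.99 against -4.80). The mean normalized count of F3 was 58.9 ± 48.0 (SD, n = 5 mice) against 575 in cultured cells, and that of TFPI2 was 294 ± 146 against 56.4. The 250 bases before the RefSeq start of these genes (GRCh38.p14, both genes on the minus strand) are shown because F3 met the rule of size and TFPI2 had the highest ratio. Capitals mark the AP-1 motif TGANTCA and the Sp1 motif GGGCGG, and in F3 also the TATA box letters TATAAA, each searched on both strands and written here along the strand of the gene.
F3, chr1:94541760-94542009: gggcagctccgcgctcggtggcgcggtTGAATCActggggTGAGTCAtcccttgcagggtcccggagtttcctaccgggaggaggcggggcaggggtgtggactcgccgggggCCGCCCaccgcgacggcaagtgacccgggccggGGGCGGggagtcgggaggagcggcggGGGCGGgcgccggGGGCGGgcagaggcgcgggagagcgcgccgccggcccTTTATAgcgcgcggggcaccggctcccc
TFPI2, chr7:93890754-93891003: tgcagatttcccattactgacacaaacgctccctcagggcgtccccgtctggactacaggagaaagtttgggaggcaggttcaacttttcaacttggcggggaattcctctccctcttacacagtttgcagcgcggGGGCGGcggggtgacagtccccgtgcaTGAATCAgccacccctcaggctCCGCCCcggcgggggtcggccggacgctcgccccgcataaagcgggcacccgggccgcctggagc
The F3 window held 2 AP-1 matches, 4 Sp1 matches and 1 match to the TATA box letters on the opposite strand, and the TFPI2 window held 1 AP-1 match and 2 Sp1 matches. Among 35116 promoter windows of this length, 6.57% held the AP-1 letters, 42.6% the Sp1 letters and 10.7% the TATA box letters. A match describes letters and does not show a bound site.

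F3 (ENSG00000117525) lies on chromosome 1 from 94529173 to 94541759 on GRCh38, and its values in culture were spread widely. The 6 cultured cells had 0, 249, 501, 542, 818 and 1340 normalized counts. No CTC was above the culture median of 522. In mouse 5541 the CTCs had 98.4 and 163. In mouse 5542 they had 0, 0, 0 and 1.37, the last from 2 reads. In mouse 5549 they had 11.2, 26.6, 41.5 and 62.2. These 3 mice thus held a mouse with every CTC near 100 or above and a mouse nearly without F3 reads. The 10 CTCs of mouse 5545 ranged from 0 to 387 with a median of 23.5, and the 17 of mouse 5546 from 0 to 450 with a median of 19.8, so both of the larger groups held a few high cells among many low or empty ones. In mouse 5546, F3 was detected in 8 of 9 libraries with c, with a median of 25.2, and in 3 of 8 with s, with a median of 0. The highest CTC, 5546-s6, gave 21.0% of all F3 counts in CTCs.

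Averaged by mouse, F3 was highest in mouse 5541 at 131, followed by 66.0 in mouse 5546, 61.7 in mouse 5545, 35.4 in mouse 5549 and 0.34 in mouse 5542. Mice 5545 and 5546 differed by far less than the spread among their own cells, with SDs of 117 and 124. The log2 ratio to culture was -4.23 ± 2.61 (SD, n = 5 mice), with a range of -8.75 to -2.13, and it was negative in 5 of 5 mice. F3 met the rule of size, and it was the only member to do so. The rule took 487 of 9164 genes as lower, which is 5.31%, and 6 as higher, which is 0.0655%. The ratio of F3 was at the 0.87 percentile of these genes. Relative to the median of all genes the ratio was -2.67, and F3 lay below the median of its own mouse in 5 of 5 mice, by 0.44 in mouse 5541 and by 7.37 in mouse 5542.

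The call for F3 was close to its limit. Mouse 5541 lay only just past 4-fold, and without cultured cell LM-3, which had the 1340, its log2 ratio was -1.68 and the rule was no longer met. In RPM the mean log2 ratio was -3.62 with -1.39 in mouse 5541, and F3 was not among the 137 genes, or 1.56% of 8777, that were then lower. With each mouse centred on its median gene, 27 genes (0.295%) were lower and 49 (0.535%) higher, and no member was in either group. The direction was the same in all 21 alternatives that recomputed it.

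In mouse 5542 the 2 reads of F3 stood among 6390937 reads, or 0.313 RPM, against 454 RPM in culture. The ratio of culture to this mouse was 1451, with a Poisson interval of 402 to 11979. Erythroid markers summed to 813 to 2607 in these 4 CTCs, within the range of 0 to 15571 over all CTCs, and their part in the result was not tested. F3 was detected in 25 of 37 CTCs, or 67.6% (exact 95% binomial interval 50.2% to 82.0%), and in 5 of 6 cultured cells. The 12 CTCs without an F3 read all had TFPI reads, and 10 of them had TFPI2 reads. Of the 25 CTCs with F3 reads, 24 had TFPI reads and 19 had TFPI2 reads, so the shares were alike. The level of F3 had a Spearman correlation of 0.37 with genes detected over the 37 CTCs. Thinning every cell to 469614 reads left F3 detected in 24 CTCs.

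**Figure D1:**
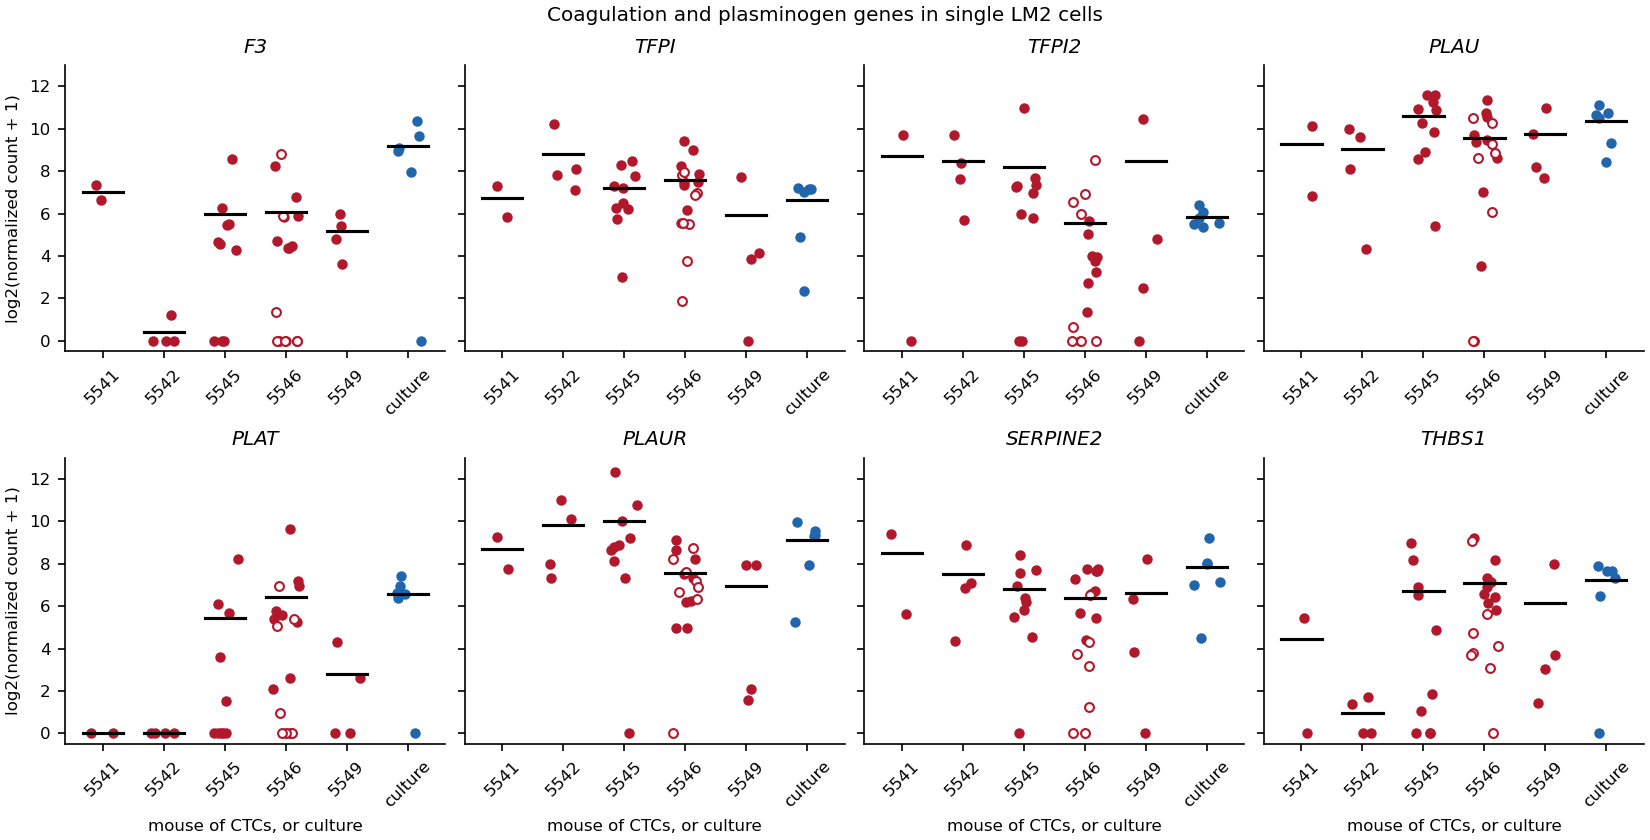
Normalized counts of the 8 genes on a log2(value + 1) axis in single cells, with CTCs in red by mouse, open circles for the libraries of mouse 5546 with the letter s, cultured cells in blue, and a bar at the log2(mean + 1) of each group. F3 lies at 0 in 3 of the 4 CTCs of mouse 5542 and PLAT at 0 in all of mice 5541 and 5542, while PLAU is high in most cells of every group.

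TFPI, the Kunitz-type inhibitor of the tissue factor and factor VIIa complex, was the member detected in the most CTCs, 36 of 37 or 97.3% (exact 95% binomial interval 85.8% to 99.9%). TFPI (ENSG00000003436) lies on chromosome 2 from 187464230 to 187565760. Cultured cells had 4.10, 28.9, 128, 140, 143 and 147. CTCs had 0 to 1182 with a median of 146, and 18 of the 37 were above the highest cultured cell. The groups overlapped, since 2 CTCs were below the lowest cultured cell. By mouse the means were 107 in 5541, 454 in 5542, 149 in 5545, 188 in 5546 and 60.4 in 5549.

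The mean of mouse means of TFPI was 192 ± 154 (SD, n = 5 mice) against 98.6 in culture, a log2 ratio of 0.63 ± 1.07 that was positive in 4 of 5 mice. Mouse 5542, nearly without F3, had the highest TFPI mean, with 136, 223, 273 and 1182 in its 4 CTCs. Its mean rests mainly on the single CTC 5542-1. With medians over cells in place of means the ratio was -0.49, so the direction depended on the average used. The cultured cells with more genes had a TFPI mean of 144 and those with fewer 53.5, both below the CTC mean. Relative to the median of all genes TFPI was 2.19 higher and lay above the median of its own mouse in 5 of 5 mice.

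TFPI2, a related Kunitz-type inhibitor that acts on plasmin and other proteases more than on tissue factor, had the largest positive ratio among the members. TFPI2 (ENSG00000105825) lies on chromosome 7 from 93885396 to 93890753. Its cultured cells were close together at 39.8, 45.2, 46.5, 55.2, 67.2 and 84.3. CTCs ranged from 0 to 1997 with a median of 49.5. Of the 37 CTCs, 14 were above every cultured cell and 18 below every cultured cell, so CTCs spread to both sides of a narrow culture range.

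Few cells carried the high means of TFPI2. The CTCs of mouse 5541 had 0 and 838, those of mouse 5542 had 50.4, 199, 335 and 837, and those of mouse 5549 had 0, 4.64, 26.9 and 1394. The 10 CTCs of mouse 5545 ranged from 0 to 1997 with a median of 137. Mice 5541, 5542, 5545 and 5549 had similar means of 419, 355, 291 and 356, although their single cells differed by more than these means did. Mouse 5546 stood apart, its mean being 46.0 and its median 12.6. Within it, the 9 libraries with c had 0 to 49.5 and a mean of 15.5, and the 8 with s had 0 to 368 and a mean of 80.5.

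The log2 ratio of TFPI2 to culture was 2.04 ± 1.31 (SD, n = 5 mice), from -0.29 in mouse 5546 to 2.87 in mouse 5541. The other 4 mice were each more than 4-fold above culture, so the rule was met without mouse 5546 and not with it. The ratio was 0.65 with medians over cells. It was 0.86 without the 4 CTCs of lowest mean Spearman correlation with the other CTCs over all genes, 5545-6, 5546-s7, 5546-s9 and 5549-6, which had 2313, 5483, 4656 and 5943 genes detected. CTC 5549-6 held the 1394. Its erythroid sum of 15571 was the highest of all CTCs, and its LM2 marker sum was 7290 against 12793 to 18025 in culture. In CTC 5545-10, which had the highest TFPI2 value, these sums were 29.2 and 23571. The part of other cell types in TFPI2 was not tested. In RPM the ratio of TFPI2 was 2.76 and positive in 5 of 5 mice. Relative to the median of all genes TFPI2 was 3.60 higher. TFPI2 was detected in 29 of 37 CTCs, or 78.4% (exact 95% binomial interval 61.8% to 90.2%), and in 6 of 6 cultured cells.

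**Figure D2:**
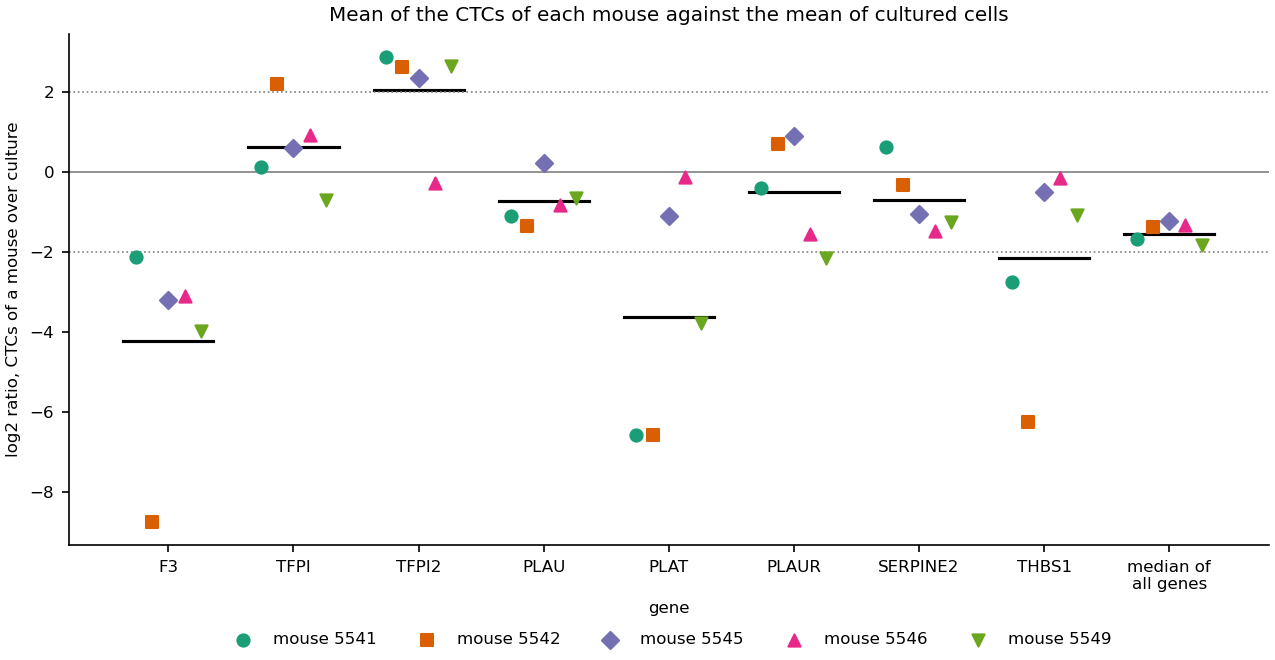
Log2 ratio of the mean CTC of each mouse to the mean of the 6 cultured cells, with 1 added to both, for each gene and for the median of 9164 genes. Symbols are mice, black bars their means, and dotted lines 4-fold, and F3 has all 5 mice below the lower line while TFPI2 has 4 mice above the upper one and mouse 5546 near 0.

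PLAU, the gene for urokinase, was per kilobase of exon the most abundant member in CTCs and in culture. PLAU (ENSG00000122861) lies on chromosome 10 from 73909177 to 73917496. Cultured cells had 342, 641, 1464, 1621, 1727 and 2221. CTCs had 0 to 3078 with a median of 700, and 4 were above the highest cultured cell while 11 were below the lowest. PLAU was detected in 35 of 37 CTCs, or 94.6% (exact 95% binomial interval 81.8% to 99.3%), and the 2 CTCs without a read were 5546-s7 and 5546-s8.

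The mean of mouse means of PLAU was 863 ± 405 (SD, n = 5 mice) against 1336 in culture, a log2 ratio of -0.74 ± 0.59. The cultured cells with more genes had a mean of 1804 and those with fewer 868. Mouse 5545 had the highest mean at 1552, and the others lay between 528 and 851. In mouse 5545 the cells ran from 42.2 to 3078, and the lowest was CTC 5545-6, which had the fewest genes detected of all CTCs. PLAU was 0.82 above the median of all genes, and its ratio in RPM was 0.05, so the sign against culture depended on the scaling.

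PLAT, the gene for tissue-type plasminogen activator, was the member detected in the fewest CTCs. It was detected in 20 of 37 CTCs, or 54.1% (exact 95% binomial interval 36.9% to 70.5%), and in 5 of 6 cultured cells. PLAT (ENSG00000104368) lies on chromosome 8 from 42174718 to 42207709. Cultured cells had 0, 82.8, 93.5, 98.5, 121 and 169. None of the CTCs of mice 5541 and 5542 had a read, in 2813452 and 6390937 reads. A floor of 3 reads per mouse is 1.07 and 0.469 RPM, so culture, with 70.3 RPM, was at least 65.8-fold and at least 149-fold higher than these mice when they are taken at that floor.

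The other mice held PLAT unevenly. Mouse 5549 had 0, 0, 5.05 and 19.0. The 10 CTCs of mouse 5545 ranged from 0 to 300 with a median of 0.94 and a mean of 43.2. The 17 of mouse 5546 ranged from 0 to 809 with a median of 37.7 and a mean of 86.0. All 9 of its libraries with c had PLAT reads, against 4 of the 8 with s, and CTC 5546-c4 alone gave 42.2% of the PLAT counts of all CTCs. The log2 ratio to culture was -3.63 ± 3.00 (SD, n = 5 mice) and spanned -6.57 to -0.13, where the lowest values belong to mice at 0 and depend on the added count of 1. Relative to the median of all genes the ratio was -2.07, and PLAT lay below the median of its own mouse in 3 mice and above it in 2. In RPM the ratio was -3.16, negative in 4 mice and positive in 1. PLAT did not meet the rule of size. It had the highest correlation of the members with genes detected over the 37 CTCs, a Spearman's rho of 0.52.

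PLAUR, the cell-surface receptor for urokinase, was near its culture level on average and varied between mice. PLAUR (ENSG00000011422) lies on chromosome 19 from 43646095 to 43670547. Cultured cells had 36.9, 242, 636, 655, 760 and 995. CTCs had 0 to 5217 with a median of 247, and 5 were above the highest cultured cell. Mean levels were 417 in mouse 5541, 900 in mouse 5542 and 1034 in mouse 5545, and lower at 187 in mouse 5546 and 125 in mouse 5549. CTC 5545-15 held 28.3% of the PLAUR counts of all CTCs. The mean of mouse means was 532 ± 414 (SD, n = 5 mice) against 554, a log2 ratio of -0.50 ± 1.34 that was negative in 3 mice and positive in 2. The cultured cells with more genes had a mean of 762 and those with fewer 346, on either side of the CTC mean. Relative to the median of all genes PLAUR was 1.06 higher, and its ratio in RPM was 0.30. PLAUR was detected in 35 of 37 CTCs.

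Urokinase and its receptor, each detected in 35 of 37 CTCs, were detected together in 33, and both were at 100 or more in 24. Over the 37 CTCs PLAU and PLAUR had a Spearman's rho of 0.49, with 0.48 in mouse 5545 and 0.33 in mouse 5546. With 10542 genes, PLAU had a median rho of 0.13 and an upper percentile of 0.46. For PLAUR these were 0.09 and 0.47. The value of this pair was thus only just above the range of most genes.

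SERPINE2, which encodes protease nexin 1, an inhibitor of thrombin and of both plasminogen activators, was detected in 33 of 37 CTCs and in 6 of 6 cultured cells. SERPINE2 (ENSG00000135919) lies on chromosome 2 from 223975045 to 224039318. Cultured cells had 21.3, 128, 139, 252, 260 and 601. CTCs had 0 to 672 with a median of 80.7, 1 above the highest cultured cell and 11 below the lowest. Mean levels were 360 in mouse 5541, 185 in 5542, 113 in 5545, 84.1 in 5546 and 97.7 in 5549. In mouse 5546 the libraries with c had 20.1 to 216 and those with s 0 to 94.5. The mean of mouse means was 168 ± 114 (SD, n = 5 mice) against 233, a log2 ratio of -0.69 ± 0.85, which was 0.87 above the median of all genes and 0.07 in RPM. The cultured cells with more genes had a mean of 371 and those with fewer 96.1, so the direction against culture depended on which cultured cells were used.

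THBS1, the gene for thrombospondin 1, was nearly absent from mouse 5542, as F3 was. THBS1 (ENSG00000137801) lies on chromosome 15 from 39581079 to 39599466. Cultured cells had 0, 89.1, 160, 201, 201 and 239. Their mean was 200 in the libraries with more genes and 96.7 in those with fewer. The 4 CTCs of mouse 5542 had 0, 0, 1.62 and 2.31, from 8 reads in all, and those of mouse 5541 had 0 and 42.3. In mouse 5549 they had 1.67, 7.29, 12.1 and 257. Mice 5541 and 5542 thus lay below every cultured cell with THBS1 reads. The CTCs of mouse 5545 ranged from 0 to 509 with a median of 15.8, and those of mouse 5546 from 0 to 604 with a median of 69.4, where the 9 libraries with c had 55.3 to 604 and the 8 with s 0 to 534. The mean of mouse means was 65.9 ± 55.5 (SD, n = 5 mice) against 148, with a log2 ratio of -2.14 ± 2.50 that was negative in 5 of 5 mice and only 0.58 below the median of all genes. In RPM the ratio was -1.41, negative in 3 mice and positive in 2. Platelets and leukocytes can also hold thrombospondin 1. Over the 37 CTCs THBS1 had a Spearman's rho of -0.13 with the summed platelet markers, which were 0 in most cells. The platelet sum counts reads aligned to human genes and can miss mouse platelets of the host. With the summed leukocyte markers THBS1 had a rho of 0.24. That leukocyte sum was 75.3 to 400 in cultured cells too, where LAPTM5 had a mean of 277, so it does not measure leukocytes alone. The part of platelets and leukocytes in the level of THBS1 was not tested.

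Compared per length, as the mean normalized count per kilobase of merged exons, the order of the members differed between CTCs and culture. In CTCs PLAU led with 293 per kilobase, followed by TFPI2 at 120, PLAUR at 119, F3 at 20.4, SERPINE2 at 18.8, TFPI at 16.4, THBS1 at 7.20 and PLAT at 3.48. In culture PLAU led with 453, followed by F3 at 199, PLAUR at 124, SERPINE2 at 26.1, TFPI2 at 23.1, THBS1 at 16.2, PLAT at 12.1 and TFPI at 8.41. TFPI2 and PLAUR in CTCs, and F3, SERPINE2 and TFPI in CTCs, lay closer together than their spread over mice. Merged exon length takes in exons that LM2 cells may not use, so these values are rough.

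All 8 members were detected together in 12 of 37 CTCs and in 4 of 6 cultured cells. The number detected per CTC had a median of 7 and a lowest value of 4, in CTC 5545-6.

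A test across all genes called no member. In edgeR's quasi-likelihood test on reads summed per mouse against reads summed over the culture, where the spread comes from the mice alone and the culture is assumed to vary likewise, 0 of 13813 genes were lower and 0 higher at an adjusted p under 0.05, which is 0.0% in each direction. At an unadjusted p under 0.05 there were 101 lower and 140 higher genes, and DESeq2 on the same sums called 3 lower and 74 higher, no member among them. In edgeR the log2 fold change was -2.15 (SE 1.35) for F3 with an adjusted p of 0.999992. For TFPI2 it was 3.48 (SE 1.24), with an unadjusted p of 0.0159 and the same adjusted p. This fit scales by trimmed means of the sums and gave positive values for TFPI (2.22), PLAU (0.73), PLAUR (1.23) and SERPINE2 (0.83), a value near 0 for THBS1 (0.03) and a negative one for PLAT (-0.59).

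The other genes of these systems came from a list of 52, of which 39 were in the table and 21 had a mean of at least 8 in CTCs or culture. Among the 21, 1 met the rule of size as lower and none as higher, where 5.31% of all genes were lower. In 5 of 5 mice 13 of the 21 were lower and none higher, and of the 9164 genes 60.3% were lower and 1.04% higher in 5 of 5 mice, so both counts were near the background. Their median log2 ratio was -1.69 against -1.56 over all genes. The gene that met the rule was F12, for coagulation factor XII, at 1.95 ± 2.02 (SD, n = 5 mice) against 32.2. Of the tissue factor partners, F10 and F5 had means under 1. F2RL1, for protease-activated receptor PAR2, was at 73.3 ± 79.1 (SD, n = 5 mice) against 456 and F2R, for the thrombin receptor PAR1, at 18.6 ± 9.6 against 64.6, with log2 ratios of -3.63 and -1.93 that did not meet the rule. Relative to the median of all genes these were -2.07 and -0.37. THBD, for thrombomodulin, was at 23.3 against 48.9, and PROCR, for the endothelial protein C receptor, at 33.9 against 27.6.

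Of the genes for cell-surface plasminogen binding, ANXA2 and S100A10 differed little from culture on this scale. ANXA2, which with S100A10 forms a plasminogen receptor, was at 9903 ± 2505 (SD, n = 5 mice) against 6862, and S100A10 at 2397 ± 763 against 2363. ENO1, a glycolytic enzyme that also binds plasminogen, was at 3868 against 6687, and PLGRKT, another plasminogen receptor, at 8.28 against 21.9. VLDLR, which clears complexes of proteases with serpins, was at 2.18 against 18.2. Both ANXA2 and S100A10 were higher than culture in 4 of 5 mice, and relative to the median of all genes they were 2.05 and 1.51 higher.

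Among the inhibitors, SERPINB6 was at 155 against 232, and the Kunitz-type inhibitors of cell-surface proteases SPINT2 and SPINT1 at 142 against 416 and 3.11 against 8.42. Each had a negative log2 ratio, of -0.82, -2.03 and -2.04. CD47, a receptor of thrombospondin 1, was at 156 against 272. P4HB, a disulfide isomerase, was at 413 against 818, and F8, for factor VIII, at 1.37 against 8.25. The vitamin K enzymes GGCX, VKORC1 and VKORC1L1 were at 21.0, 55.0 and 6.74 against 45.9, 125 and 28.7. MCFD2 and LMAN1, the cargo receptor pair of factors V and VIII, were at 71.0 and 21.7 against 130 and 39.0. Relative to the median of all genes, the ratios of these 11 genes lay between -0.68 and 0.74.

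**Figure D3:**
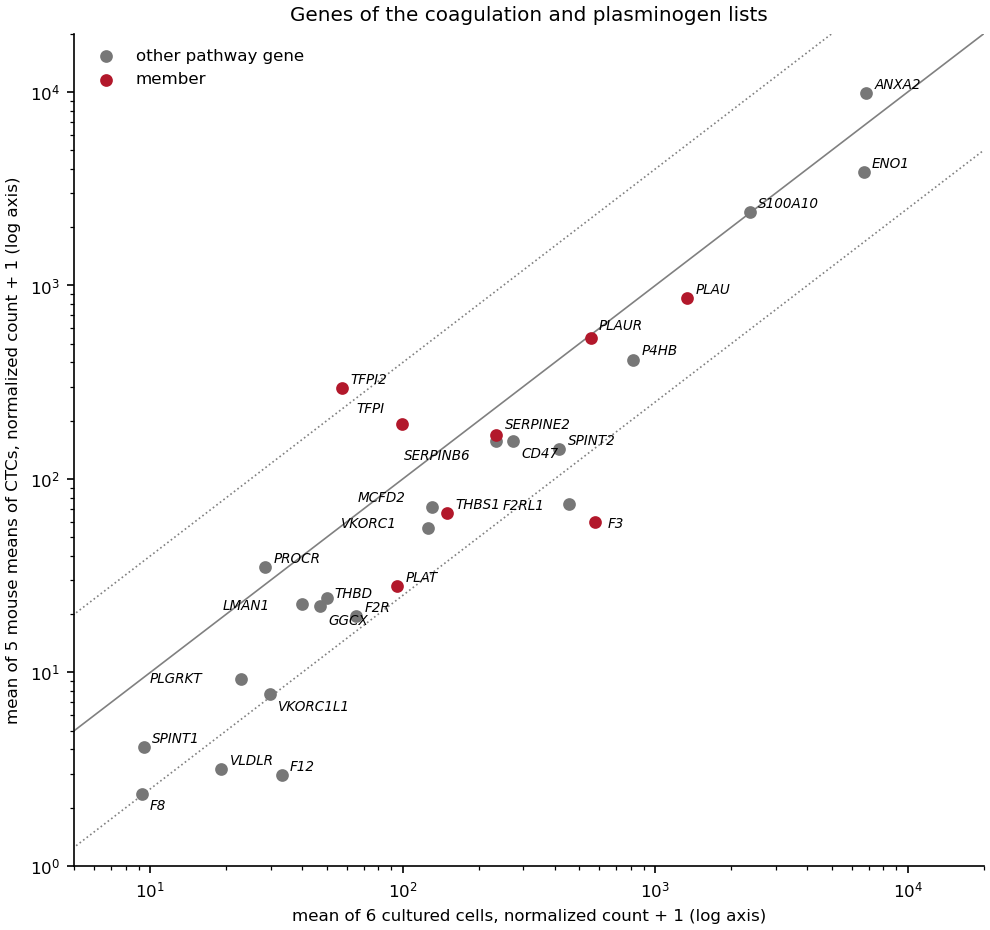
Mean of 5 mouse means in CTCs against the mean of 6 cultured cells, both as normalized count + 1 on log axes, for the 8 members in red and the 21 other genes of the list in gray. The solid line marks equal levels and the dotted lines 4-fold, and F3, F2RL1, F12 and VLDLR lie below the lower dotted line while TFPI2 lies above the upper one.

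Among the 28 pairs of members, Spearman's rho over the 37 CTCs lay between -0.51 and 0.56 around a median of 0.12, and 4 pairs reached 0.4 in size. With 10542 genes, the median rho of a member ran from -0.04 for TFPI2 to 0.17 for PLAT. The median of the pairs was thus near this background. These values are descriptions over cells that share mice, library depth and the number of genes detected. TFPI and SERPINE2 had the highest value, 0.56 over all CTCs, 0.78 in mouse 5545 and 0.59 in mouse 5546. F3 and THBS1 had 0.53, with 0.69 and 0.75 in those mice, and mouse 5542 was low in both genes. TFPI2 and THBS1 had -0.51, with -0.44 in mouse 5545 and -0.02 in mouse 5546, so that this value did not appear within the largest group. F3 and TFPI had -0.03, with opposite signs of -0.45 and 0.48 in the same mice.

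**Figure D4:**
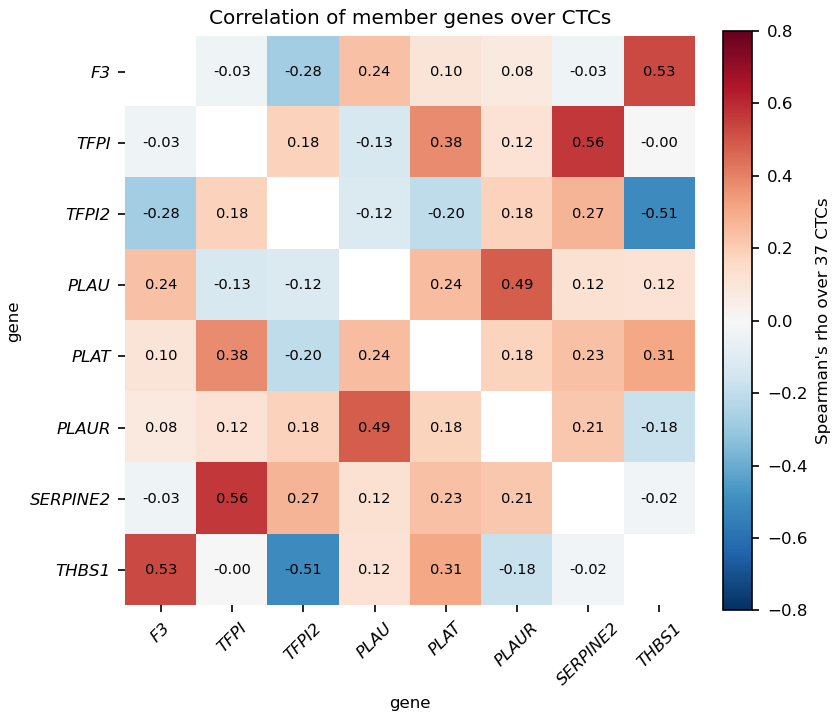
Spearman's rho between the normalized counts of each pair of the 8 genes over 37 CTCs, with the color scale running from -0.8 to 0.8. TFPI with SERPINE2 and F3 with THBS1 have the highest values, 0.56 and 0.53, and TFPI2 with THBS1 the lowest, -0.51.

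The genes whose levels over the 37 CTCs were most like each member, among 10542 genes detected in at least 10 CTCs, had Spearman correlations of 0.57 to 0.81. THBS1 had the highest, with LRFN4 at 0.81, followed by MBNL1 and CEMIP2. F3 was most like WDR3 at 0.68, then CREB3L1 and STT3A. TFPI was most like TMEM59 at 0.74, then UFD1 and DIABLO, and PLAT most like KMT5A at 0.74, then SELENON and SGMS1. PLAUR was most like TUBB4B at 0.71, then ATP5PO and TUBB6, and PLAU most like ANKRD39 at 0.70, then NDUFB6 and C7orf50. SERPINE2 was most like TUT7 at 0.68, then ATP6V0E1 and PHF20L1. TFPI2 had the lowest, with TAGLN3 at 0.59, then NOP10 and LPXN, and within mouse 5546 its value with TAGLN3 was -0.07. The leading genes were the highest of 10542 values each and were not tested.

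Reads were counted without strand, and some members overlap other genes. PLAU overlaps the antisense gene C10orf55, whose mean was 2.93 in CTCs and 3.19 in culture. TFPI overlaps CALCRL-AS1, at 0.10 and 0. THBS1 overlaps FSIP1, at 0.52 and 1.19, and THBS1-IT1, at 0.91 and 3.71. TFPI2 lies within the span of GNGT1 on the opposite strand. For PLAU, TFPI and THBS1 the counts of these neighbors were small beside those of the member, although reads where genes overlap cannot be told apart.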

How the data were processed

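Single LM2 cells were sequenced by SMARTseq2. The authors used STAR 2.7.10a on GRCh38, kept uniquely mapped reads, counted them per gene without strand, left out 4 of 41 CTCs for mapping or mitochondrial share, and, per the submitters' processing notes, used DESeq2 1.42.1. What the authors deposited is a signal, namely gene reads over a size factor per cell. Mouse RNA was not separated, so reads from mouse cells that align to human genes would be counted. Whole reads were recovered for 100% of nonzero values with a tolerance of 0.001. CTCs were grouped by the number before the hyphen of the library name, taken as the mouse, and the 6 cultured cells formed 1 sample. The labels give all cells 1 batch.

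The members and the gene lists were chosen with earlier results of these data known. Genes named besides the members are list genes with a mean of at least 8 and the 3 genes most correlated with each member (F5, F10, PF4, PPBP, GP9, PTPRC and genes overlapping a member were named after their values were seen), and 1 gene of the list is not reported here. Log2 ratios used a pseudocount of 1. Spearman correlations were computed on normalized counts. The test on summed reads used edgeR 4.0.16 (quasi-likelihood, Benjamini-Hochberg over all genes) in R 4.3.3, with DESeq2 1.42.0 as an alternative, and all other steps Python 3.11.15 with pandas 2.3.3 and scipy 1.17.1. The steps were tested on simulated data. Symbols and gene spans came from GENCODE release 44 and promoters from RefSeq, which held 7 of the 8 members. Alternatives were other pseudocounts, folds and averages, RPM, thinning to 469614 reads, and leaving out each mouse, each cultured cell or the libraries of 1 letter. Centring on the median gene of each mouse and leaving out the 4 CTCs of lowest correlation were added after the data were examined.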

Additional observations from a re-analysis of the deposited data

Results flagged for a closer look

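Of 39 groups of 4 to 10 values examined on the log2(value + 1) scale, 10 held a single value far from the others. The cut-off passes about 1 in 20 groups of independent, normally spread values. Here many values are 0 and the same cells recur across genes, so the 10 cannot be set against that share. Among mouse means, F3 in mouse 5542 was 0.342 with the next at 35.4, and TFPI2 in mouse 5546 was 46.0 with the next at 291. Among cultured cells, LM-10 had 0 for F3 with the next at 249 and 0 for THBS1 with the next at 89.1, and LM-3 had 0 for PLAT with the next at 82.8. In mouse 5545, CTC 5545-6 was low for PLAU at 42.2 with the next at 379, and for PLAUR at 0 with the next at 159. In the same mouse CTC 5545-12 was low for TFPI at 7.14 with the next at 53.1, and for SERPINE2 at 0 with the next at 22.5, while its PLAU was 3047. Within mouse 5542, CTC 5542-4 was apart for F3 at 1.37 because the other 3 CTCs were at 0, where any value above 0 would be flagged.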

How the results depend on the processing

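With the rule of size, 1 member (F3), 487 lower and 6 higher genes were found. No member met it in RPM (0 members, 137 lower and 12 higher genes), in RPM of nuclear reads, in thinned reads, with medians over cells, at a fold of 8 (80 lower genes) or with each mouse centred on its median gene (27 lower, 49 higher). A fold of 2 gave 2298 lower and 24 higher genes and still 1 member. Leaving out each mouse or cultured cell in turn gave 0 to 2 members, 397 to 757 lower and 5 to 13 higher genes. The 0 came without LM-3 and the 2 without mouse 5546, the 757 without mouse 5545 and the 13 without mouse 5541, and without mice 5546 and 5549 there were 12 and 10 higher genes. On summed reads edgeR called 0 genes, 0 to 1 with a mouse or cultured cell left out (1 without mouse 5545) and 27 with no filter, and DESeq2 called 77, with no member called in any of these fits. F3, PLAT, TFPI2 and THBS1 kept the sign of their mean log2 ratio in 21 of 21 alternatives, TFPI in 20, and PLAU, PLAUR and SERPINE2 in 17. The cause of these changes was not tested. No paired analysis was possible because the culture is 1 sample and its library numbers do not pair with those of CTCs. Depth limits values near 0, where 1 read decides detection.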

Other observations

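Members differed in how much of their variation lay between mice. The share of the variance of log2(value + 1) over 37 CTCs that lay between the 5 mice was 27.2% for THBS1, 25.9% for TFPI, 23.8% for PLAT, 23.4% for F3, 20.7% for PLAUR, 19.3% for TFPI2, 9.84% for PLAU and 9.56% for SERPINE2, against a median of 12.0% over all genes. The share between 5 mice by chance alone is 11.1%. The median of all genes was near it, and PLAU and SERPINE2 lay under it. Between mice 5545 and 5546 alone the share was 14.7% for TFPI2, 10.2% for PLAU, 9.96% for THBS1, 9.24% for PLAUR, 5.85% for PLAT, 2.71% for SERPINE2, 0.352% for F3 and 0.0498% for TFPI, against a median of 3.38%. The shares of F3 and TFPI over 5 mice thus came mainly from the mice with 2 to 4 CTCs.

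In the promoter windows of the other members found in RefSeq, PLAUR held 1 AP-1 match and 1 match to the Egr-1 letters GCGTGGGCG, which 0.720% of all windows hold. THBS1 held 4 Sp1 matches, 1 Egr-1 match and 1 match to the TEAD letters GGAATG, which 11.9% of windows hold. Of 2 windows of PLAU, 1 held 3 Sp1 matches and the other none of the motifs searched, the 2 windows of SERPINE2 held 1 and 2 Sp1 matches, and TFPI held none.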
